A study of Mus musculus with 12 samples.

Results

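The 10 neuropeptide genes Npy, Gal, Cartpt, Vip, Sst, Penk, Pnoc, Tac1, Nts and Adcyap1 were followed across the cells of the mouse superior mesenteric ganglion (SMG), a sympathetic ganglion beside the mesenteric artery. They were chosen by gene symbol, as 10 of the 32289 features of the count matrices, and each of them had at least 1 UMI (unique molecular identifier, a tag on each captured RNA molecule) in a cell. Droplet-based scRNA-seq (Chromium 3' v1) had been performed on 1 SMG library from each of 12 mice of the strain 129+Ter/SvJcl. The groups were a 3-week-old WT mouse (n = 1), 3-week-old Th-MYCN+/- mice (n = 10, #1 to #10) and a 6-week-old Th-MYCN+/- mouse (n = 1). Th-MYCN+/- mice are hemizygous for human MYCN under the rat tyrosine hydroxylase promoter, so that the transgene is driven in the sympathetic lineage, and they develop neuroblastoma there. The 6-week-old SMG had been selected by the study because it carried a macroscopic tumor, and the WT mouse carries no transgene. The labels state no litter, batch or date, and the WT and the 6-week-old mouse, 1 each, are set beside the 10 mice without a test.

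Neuropeptides are cut from larger precursor proteins, stored in dense-core granules and released beside a classical transmitter to act on G protein-coupled receptors. Most sympathetic neurons release noradrenaline together with neuropeptide Y, the product of Npy, and some also contain galanin (Gal). Neuroblasts are the immature cells of this lineage, and neuroblastoma, the tumor that forms from them, is known for releasing peptides such as VIP.

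The 12 libraries held between 1147772 and 6388766 UMIs, and 11994 barcodes were kept as cells, 522 to 1811 per mouse. Clusters were named from marker genes of the study, with the 10 neuropeptide genes and the transgene left out of clustering and naming. The neural classes were 5280 neuroblast-like and 2671 ganglion-like cells. The others were 2916 Schwann-like cells, 141 fibroblast-like and 165 myofibroblast-like cells, 509 endothelial-like cells, 43 NKT-like and 241 macrophage-like cells, and 28 cells stayed unnamed. Of the 16 neuroblast markers 15, and of the 16 ganglion markers all 16, had their highest level in the class of that name. The clusters had been named from these same markers, so that this is largely built in. The transgene, listed as H-MYCN, was measured like every level as UMIs per 1000000 UMIs of the class (CPM). Neuroblast-like cells had 90.9 to 489 CPM of it over #1 to #10 and 344 CPM in the 6-week-old mouse. It had 0 UMIs in every class of the WT mouse, including its 50 neuroblast-like cells. Of these, 8 had more ganglion than neuroblast marker UMIs, and the 16118 UMIs of the other 42 allow up to 186 CPM (3 counts). Mouse #2 stood apart, with 38.5% of its UMIs in cells against 61.1% to 87.1% in the other libraries, and it gave 1491 of the 2671 ganglion-like cells. Libraries shared 94 cell barcodes over all 66 pairs, where the sizes of the libraries alone give 88.4. Intervals given for a single mouse are exact 95% intervals (Poisson for sums of UMIs, Clopper-Pearson for shares of cells) and cover counting error only.

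The 10 genes fell on 8 autosomes and were annotated as protein coding in GRCm38. Npy (ENSMUSG00000029819) lay on chromosome 6 from 49822710 to 49829507 on the plus strand and Gal (ENSMUSG00000024907) on chromosome 19 from 3409915 to 3414544 on the minus strand. Cartpt (ENSMUSG00000021647) lay on chromosome 13 from 99898489 to 99901091 on the minus strand and Pnoc (ENSMUSG00000045731) on chromosome 14 from 65400673 to 65425472 on the minus strand. Several peptide genes are textbook targets of the cAMP pathway, whose transcription factor CREB binds the cAMP response element (CRE) TGACGTCA, and MYCN binds the E-box CACGTG. Both motifs read the same on either strand. Promoters of 300 bases (250 before to 50 after the RefSeq start, GRCm38.p6) were matched for 8 of the 10 genes, and not for Penk and Pnoc. The CRE was found in 2 of the 8, Cartpt and Sst, against 588 of 32851 promoters (1.79%). The E-box was found in 1, Tac1, against 2349 promoters (7.15%), and in neither Npy nor Gal was either motif found. Only exact matches were counted. The promoters of Vip and Adcyap1 hold TGACGTCT, which differs from this CRE in its last base and was not counted. The promoters of both ganglion-like peptide genes and of both genes with a CRE are shown, with the CRE in capitals. They cover chr6:49822460-49822759 (plus strand) for Npy, chr19:3414495-3414794 (minus strand) for Gal, chr13:99900634-99900933 (minus strand) for Cartpt and chr16:23890795-23891094 (minus strand) for Sst.
Npy: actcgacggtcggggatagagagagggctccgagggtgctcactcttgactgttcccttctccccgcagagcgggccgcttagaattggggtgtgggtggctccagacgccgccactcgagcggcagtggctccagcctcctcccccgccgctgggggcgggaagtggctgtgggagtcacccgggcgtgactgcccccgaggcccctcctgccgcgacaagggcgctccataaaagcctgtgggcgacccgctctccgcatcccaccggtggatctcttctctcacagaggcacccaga
Gal: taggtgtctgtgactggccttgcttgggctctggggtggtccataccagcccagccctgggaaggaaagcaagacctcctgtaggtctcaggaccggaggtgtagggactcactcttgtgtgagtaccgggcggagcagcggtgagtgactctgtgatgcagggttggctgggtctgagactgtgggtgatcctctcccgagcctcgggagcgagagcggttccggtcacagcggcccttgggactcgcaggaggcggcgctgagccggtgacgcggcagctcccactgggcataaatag
Cartpt: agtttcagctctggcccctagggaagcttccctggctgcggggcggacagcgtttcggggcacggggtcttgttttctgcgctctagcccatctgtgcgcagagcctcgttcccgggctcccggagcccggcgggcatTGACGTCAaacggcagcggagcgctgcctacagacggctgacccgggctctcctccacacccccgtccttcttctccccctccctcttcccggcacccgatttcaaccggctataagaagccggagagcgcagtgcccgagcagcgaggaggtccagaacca
Sst: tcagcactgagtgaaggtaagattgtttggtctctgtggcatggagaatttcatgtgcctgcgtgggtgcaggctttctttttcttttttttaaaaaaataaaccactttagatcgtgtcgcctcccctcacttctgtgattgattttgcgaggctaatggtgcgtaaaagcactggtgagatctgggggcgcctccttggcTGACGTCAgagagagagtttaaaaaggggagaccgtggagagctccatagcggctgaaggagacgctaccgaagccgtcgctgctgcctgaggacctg
The CRE began 112 bases before the start of Cartpt and 48 bases before that of Sst. A match describes these letters and is no measurement of binding.

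The 10 genes differed in how much of their RNA was found and in which cells. Npy had 135647 UMIs in 3854 cells, Gal 10349 in 1432, Cartpt 6421 in 1214 and Pnoc 6412 in 2360. Vip had 721 UMIs in 33 cells, Adcyap1 184 in 139, Sst 171 in 95, Penk 40 in 25, Nts 35 in 21 and Tac1 2 in 2. Ganglion-like cells held 80.8% of the Npy UMIs, 79.3% of the Gal UMIs, 68.5% of the Vip UMIs and 62.6% of the Sst UMIs. The share of Vip rests on #7, without which ganglion-like cells held 11.1% and neuroblast-like cells 88.1% of 253 UMIs. Neuroblast-like cells held 97.5% of the Cartpt UMIs, 99.1% of the Pnoc UMIs and 95.7% of the Adcyap1 UMIs. All 40 Penk UMIs lay in fibroblast-like cells, and 68.6% of the Nts UMIs lay in endothelial-like cells. The study had used Npy and Cartpt to name ganglion cells and neuroblasts on these samples, so that their direction between these classes is not independent of its choice, and differences between clusters are in part built in by clustering.

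**Figure D1:**
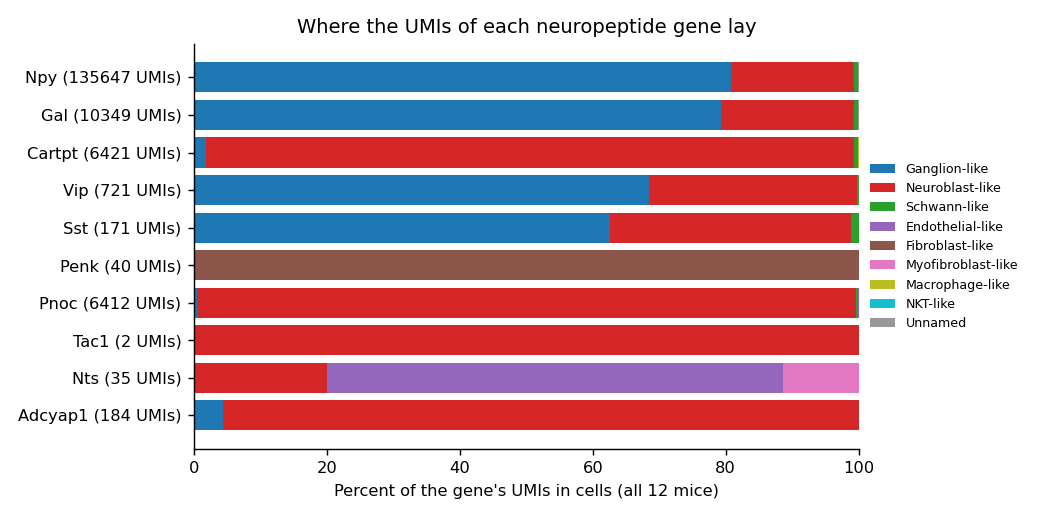
Percent of each gene's UMIs in cells that lay in each cell class, all 12 mice together, with the gene's total in parentheses. Npy and Gal lay mostly in ganglion-like cells, Cartpt, Pnoc and Adcyap1 almost wholly in neuroblast-like cells, and the 40 Penk UMIs in fibroblast-like cells, while the ganglion-like share of Vip was 11.1% without #7.

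Npy was measured in the ganglion-like cells of every mouse. Its level over the 10 3-week-old Th-MYCN+/- mice was 11136 CPM ± 3191 (SD, n = 10), with the lowest value in #8 (5614 CPM), a median of 10512 and the highest in #2 (18059). The WT mouse had 10671 CPM (95% interval 10291 to 11060) and the 6-week-old mouse 11820 (11598 to 12044), and both lay within the range of the 10 mice. Without #2, the next highest was #5 with 13391 CPM, and the mean was 10367. With each cell thinned to 500 UMIs, 88.0% ± 6.5 (SD, n = 10) of ganglion-like cells had a Npy UMI, and 94.6% of all 2671 had one unthinned.

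The mean levels of Npy over the 10 mice fell off in the order ganglion-like, neuroblast-like, Schwann-like, endothelial-like and macrophage-like. Neuroblast-like cells had 772 CPM ± 913, Schwann-like cells 246 ± 205, endothelial-like cells 112 ± 144 and macrophage-like cells 66.8 ± 74.1 (SD, n = 10). The values of Schwann-like cells (70.7 to 736) overlapped those of neuroblast-like cells (51.0 to 2500) and of endothelial-like cells (0 to 413). Within a mouse, the Schwann-like level was above the endothelial-like one except in #3 (71.8 against 413 CPM). In #3, 1 endothelial-like cell held 15 of the 16 Npy UMIs of its class. Neuroblast-like and Schwann-like cells of the same mouse are compared by a test below. The 28 unnamed cells had 2730 CPM. Npy RNA was also present outside of cells: barcodes taken as empty held 991 to 13715 CPM of Npy, with a median of 7289. In endothelial-like cells, which should lack the gene, 4.65% ± 6.3 had a Npy UMI at 500 UMIs (n = 9 mice), against 7.21% ± 8.8 of neuroblast-like cells (n = 10) and 6.03% ± 2.7 of Schwann-like cells (n = 9). The median depths before thinning were 1095, 2731 and 941 UMIs. The mean shares in neuroblast-like and Schwann-like cells lay within the SD of that background, which rests on few cells (3 of 16 in #2). Among mice with at least 10 cells of each class, the Schwann-like share was above the endothelial-like one except in #9. The neuroblast-like share was above it except in #3 and #9. These differences in shares were not tested.

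Gal, a second co-transmitter of sympathetic neurons, was like Npy highest in ganglion-like and next in neuroblast-like cells, by the mean over the 10 mice. Ganglion-like cells had 907 CPM ± 265 (SD, n = 10), from 580 in #8 to 1310 in #6, with a median of 810. Neuroblast-like cells had 87.2 ± 92.0, Schwann-like cells 31.9 ± 53.7 and endothelial-like cells 15.2 ± 33.5. The Schwann-like and endothelial-like values overlapped. In #2 the Schwann-like level was 184 CPM, from 1 UMI in 10 cells, and in the other mice it was 8.47 to 24.9. At 500 UMIs, a Gal UMI was found in 30.4% ± 8.6 of ganglion-like cells, 1.30% ± 1.0 of neuroblast-like cells and 0.412% ± 1.2 of endothelial-like cells.

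**Figure D2:**
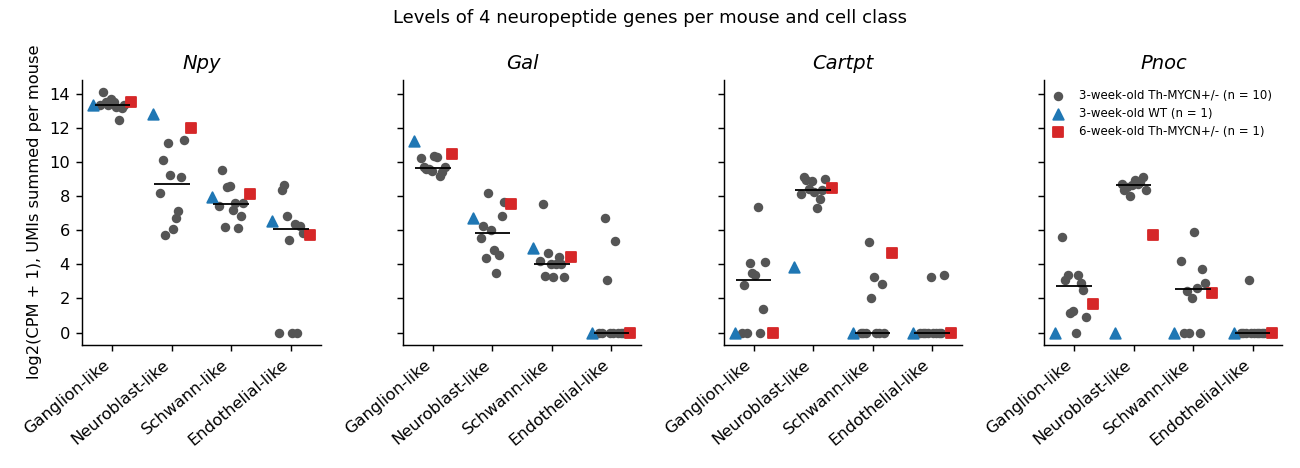
Levels of Npy, Gal, Cartpt and Pnoc as log2(CPM + 1), with UMIs summed per mouse and cell class. Grey points are the 10 3-week-old Th-MYCN+/- mice with their median as a line, blue triangles the WT mouse and red squares the 6-week-old mouse. Npy and Gal were highest in ganglion-like cells, Cartpt and Pnoc in neuroblast-like cells of Th-MYCN+/- mice, and the 6-week-old mouse lay under all 10 mice for Pnoc there.

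Ganglion-like cells were compared with Schwann-like cells, the glia of the ganglion, within each of the 10 3-week-old Th-MYCN+/- mice (UMIs summed per mouse and class, edgeR's quasi-likelihood test with the mouse as a block, Benjamini-Hochberg adjustment over all genes, threshold 0.05). Of the genes tested, 68.2% were called, 35.9% higher and 32.2% lower, so that a call by itself says little about a gene. Npy was higher in ganglion-like cells by 5.81 ± 0.28 (log2, SE; adjusted p = 5.565e-19) and Gal by 5.66 ± 0.26 (adjusted p = 3.8427e-19), each in 10 of 10 mice. Gal had 1 to 14 UMIs per mouse in Schwann-like cells, so that its size rests on low counts there. Pnoc, the only other of the 10 genes with enough UMIs for this test, differed by -0.68 ± 0.66 (adjusted p = 0.365). The difference of Pnoc had a 95% interval of -1.96 to 0.61 on the log2 scale.

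Gal and Npy were detected together in many ganglion-like cells. Of 2170 cells of at least 500 UMIs, each thinned to 500, 560 had a UMI of both genes, 1468 of Npy alone, 20 of Gal alone and 122 of neither. Npy was found in 96.6% of the cells with and 92.3% of the cells without a Gal UMI. These shares are mostly those of #2, with 1383 of the cells. Over the 10 mice the share with Npy was higher in the cells with Gal in 6, lower in 3 and equal in 1, and in the WT mouse it was lower, at 76.2% of 21 cells against 94.4% of 36. A cell without a Gal UMI at this depth may still express the gene. Over the 6 mice with enough cells, Npy differed between ganglion-like cells with and without a Gal UMI by 0.02 ± 0.14 on the log2 scale (95% interval -0.25 to 0.30, edgeR adjusted p = 0.994). In this comparison, 0.11% of the genes tested were called, which is 1 gene. That gene was Nnat, which encodes neuronatin and is on the study's list of neuroblast markers. It was lower in cells with a Gal UMI, at 399 against 1236 CPM (-1.15 ± 0.25 on the log2 scale, adjusted p = 0.0181, 6 of 6 mice), and the call was lost with DESeq2 and without #4 or #10.

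The 3 ganglion-like clusters carried both peptides. Cluster 3 (1494 cells, 1404 of them from #2) had 14732 CPM ± 2625 of Npy (n = 4 mice), cluster 5 (851 cells) had 9616 ± 3678 (n = 10) and cluster 8 (326 cells with a median of 15321 UMIs) had 10752 ± 2821 (n = 8). Gal had 616 ± 578 CPM, 953 ± 441 and 861 ± 332 in the same order. The ranges over mice overlapped for both genes, although in each of the 4 mice with both clusters Npy was higher in cluster 3 than in cluster 5 (18079 against 16911 CPM in #2 and 13671 against 9383 in #10).

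Gal in ganglion-like cells was higher in the WT mouse and in the 6-week-old mouse than in any of the 10 3-week-old Th-MYCN+/- mice. The WT mouse had 2460 CPM (2280 to 2651) and the 6-week-old mouse 1435 (1359 to 1515), against 580 to 1310. Of the Gal UMIs of the WT mouse, 53.7% came from 5 of its 87 cells, and without them its level was 1489 CPM. The share of cells with a Gal UMI at 500 UMIs was 36.8% (24.4% to 50.7%) in the WT mouse and 39.1% (28.8% to 50.1%) in the 6-week-old mouse, both within the 17.1% to 50% of the 10 mice. Most of these UMIs came from cluster 8, where the WT mouse had 2642 CPM against 575 to 1529 in the transgenic mice at 3 weeks. In cluster 5, its 1938 CPM lay within their 484 to 1943. With log-normalized counts for clustering, the 6-week-old mouse had 1046 CPM and lay within the range of the 10 mice (510 to 1432), and without the highest 5% of Scrublet scores its 1451 CPM lay under their highest value of 1559. The WT mouse stayed above the range in both. These are single mice, and their differences have no replicate check.

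**Figure D3:**
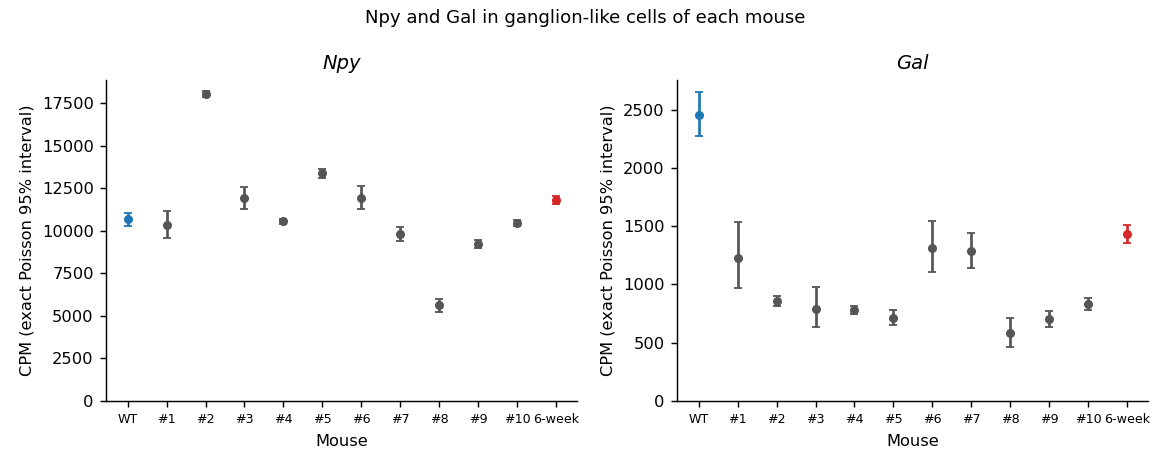
Npy (left) and Gal (right) in ganglion-like cells of each mouse, in CPM with exact Poisson 95% intervals, for the WT mouse (blue), #1 to #10 (grey) and the 6-week-old mouse (red). Npy of both single mice lay among the 10 mice, of which #2 was highest with 18059 CPM, and Gal lay above them with 2460 and 1435 CPM.

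Cartpt, the precursor of the CART peptides, was a neuroblast-like gene. Its level there was 367 CPM ± 132 (SD, n = 10), from 159 in #7 through a median of 336 to 553 in #2. Ganglion-like cells had 22.5 ± 50.8, with 3 mice at 0 and a highest value of 166 in #7, and Schwann-like cells had 5.69 ± 12.1. Neuroblast-like cells had the higher level in 9 of 10 mice, and in #7 the values were 159 and 166 CPM, where 1 ganglion-like cell held 30 of the 36 Cartpt UMIs of its class. At 500 UMIs, 10.0% ± 3.9 of neuroblast-like cells had a Cartpt UMI, against 0.513% ± 0.98 of ganglion-like cells. The 6-week-old mouse had 354 CPM (331 to 378), within the range of the 10 mice, and the WT mouse had 1 Cartpt UMI in its 50 neuroblast-like cells (13.1 CPM, 0.332 to 73.0, or 62.0 CPM, 1.57 to 346, in the 42 without an excess of ganglion marker UMIs).

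Pnoc encodes the precursor of the opioid-like peptide nociceptin. By the mean over the 10 3-week-old Th-MYCN+/- mice, it was the most widely detected neuropeptide gene of the neuroblast-like class. At 500 UMIs, the order differed in #2 (Npy 30.4%, Cartpt 18.3%, Pnoc 15.7%) and in the 6-week-old mouse (Cartpt 15.8%, Npy 6.31%, Pnoc 4.10%). Pnoc was found in 18.9% ± 3.2 of these cells at 500 UMIs, against 0.173% ± 0.50 of ganglion-like and 0.168% ± 0.29 of Schwann-like cells. Its level was 408 CPM ± 90.1 (SD, n = 10), from 263 in #4 through a median of 409 to 568 in #9. Schwann-like cells had 10.8 ± 17.9 and ganglion-like cells 8.79 ± 13.96, and these neighbours did not differ beyond their spread. Its UMIs were spread over many cells: the 53 neuroblast-like cells with most of them, 1% of the class, held 14.9%, where the same share was 43.2% for Cartpt and 91.4% for Npy.

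The 6-week-old mouse had far less Pnoc in its neuroblast-like cells than any of the 10 younger mice. Its 376 cells had 51.0 CPM (42.5 to 60.7), against 263 to 568, and 4.10% of them (2.20% to 6.91%) had a UMI at 500 UMIs, against 14.5% to 23.8%. Cartpt and H-MYCN of the same cells, at 354 and 344 CPM, lay within the range of the 10 mice. The gap held in each of the 3 neuroblast-like clusters, at 41.9, 55.0 and 43.1 CPM in clusters 0, 2 and 4 of the 6-week-old mouse, against lowest values of 172, 125 and 254 in the mice of 3 weeks. It also held under every alternative of cell selection and clustering, with 50.4 to 73.2 CPM in the 6-week-old mouse and lowest values of 259 to 344 in the others. With 1 mouse at 6 weeks, age, tumor and animal cannot be told apart. The WT mouse had 0 Pnoc UMIs in its 50 neuroblast-like cells, and the 42 of them without an excess of ganglion marker UMIs allow up to 186 CPM.

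Adcyap1, which encodes PACAP, a peptide that excites sympathetic neurons and chromaffin cells, was a rare transcript of neuroblast-like cells. It had 7.28 CPM ± 7.33 (SD, n = 10), from 1.11 in #9 through a median of 5.17 to 24.8 in #1, and was detected there in all 10 mice. The 6-week-old mouse had 24.1 CPM (18.4 to 31.0), near the highest of the 10. Ganglion-like cells had 0.891 ± 1.55, with UMIs in 4 of 10 mice.

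Neuroblast-like cells were compared with ganglion-like cells of the same mouse in the 10 3-week-old Th-MYCN+/- mice by the same test. Of the 10468 genes tested, 63.5% were called, 33.2% higher and 30.3% lower in neuroblast-like cells, and Penk, Tac1 and Nts had too few UMIs to be tested. Pnoc was higher in neuroblast-like cells by 6.43 ± 0.31 (log2, SE), Cartpt by 4.80 ± 0.46 and Adcyap1 by 2.83 ± 0.60, with adjusted p of 6.0022e-15, 1.2432e-09 and 0.000206. Adcyap1 entered the test through its neuroblast-like sums, with a mean of 0.943 CPM in ganglion-like cells. It had too few UMIs to be tested without the block or without the shallow neuroblast-like cluster. With a mouse left out, Adcyap1 was tested in 8 of the 10 fits, so that its p is weak support. After scaling by TMM, Pnoc and Cartpt were higher in 10 of 10 mice, with Cartpt nearly equal in #7, and Adcyap1 in 9 of 10. Npy was lower by 26.6-fold (-4.73 ± 0.42, adjusted p = 2.6024e-10) and Gal by 13.1-fold (-3.71 ± 0.34, adjusted p = 5.2841e-10), each in 10 of 10 mice. Sst (-0.97 ± 0.64, adjusted p = 0.187) and Vip (-0.23 ± 1.44, adjusted p = 0.899) did not pass, with 95% intervals of -2.21 to 0.28 and -3.05 to 2.59 on the log2 scale. Sst was lower past the threshold with DESeq2 (-2.47 ± 0.90, adjusted p = 0.0111) and in edgeR without #4 (-2.25 ± 0.64, adjusted p = 0.00406), the mouse in which 1 neuroblast-like cell held 19 Sst UMIs. H-MYCN, on the same scale, was higher by 6.78 ± 0.37. Pnoc, Cartpt and H-MYCN also entered the test through their neuroblast-like sums. In ganglion-like cells they had 0 to 15, 0 to 38 and 0 to 6 UMIs per mouse. Their sizes, and the p-values of Pnoc and Cartpt, thus rest on low counts in ganglion-like cells.

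Over all mice together, the Npy and Gal UMIs of the neuroblast-like class came mostly from a few cells. In 117 of its 5280 cells, the 16 ganglion markers together had more UMIs than the 16 neuroblast markers. These cells came from all 12 libraries and lay mainly in clusters 0 and 2. Their median depth was 15487 UMIs, and that of the remaining 5163 cells 2714. They held 92.5% of the Npy UMIs and 82.1% of the Gal UMIs of the class, but 0.351% of its Cartpt, 0.0472% of its Pnoc and 0.0720% of its H-MYCN UMIs. By mouse, their share of the Npy UMIs ran from 0% in #7 to 95.4% in #10 and was under 50% in 5 of the 10 mice. Their levels of 10629 CPM for Npy, 780 for Gal and 1.83 for H-MYCN were close to the 12477, 934 and 2.28 of all ganglion-like cells. The other 5163 cells had 122 CPM of Npy, 24.0 of Gal, 402 of Cartpt, 410 of Pnoc and 358 of H-MYCN. Whether they were ganglion neurons in the wrong cluster or doublets was not tested, since the doublet caller Scrublet marked 49 of 11994 cells, under 0.5% of them, and was taken as not having worked.

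Without these 117 cells, Npy was lower in neuroblast-like than in ganglion-like cells by -6.34 ± 0.28 and Gal by -5.02 ± 0.23 on the log2 scale, while Cartpt (4.90 ± 0.44), Pnoc (6.60 ± 0.30) and Adcyap1 (3.02 ± 0.60) moved little. This setting was chosen after the spread of Npy over the cells had been seen.

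**Figure D4:**
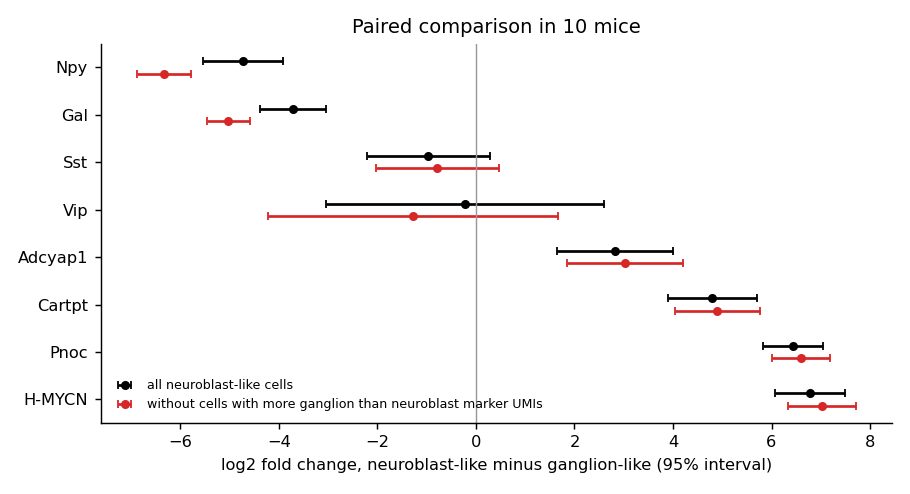
Log2 fold change of neuroblast-like over ganglion-like cells in 10 3-week-old Th-MYCN+/- mice, with 95% intervals, for all neuroblast-like cells (black) and without the 117 cells with more ganglion than neuroblast marker UMIs (red). Npy and Gal moved from -4.73 to -6.34 and from -3.71 to -5.02, and the intervals of Sst and Vip include 0.

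The mice differed widely in neuroblast-like Npy, and in CPM the highest levels fell most without the 117 cells. In relative terms, the lowest and the highest of the 10 mice stayed about as far apart. Over the 10 mice, the level ran from 51.0 CPM in #3 through a median of 426 to 2500 in #10, and it was 7184 in the WT and 4137 in the 6-week-old mouse. Without the 117 cells the 10 mice had 19.8 to 923 CPM, with 126.8 as the median, the WT mouse 248 and the 6-week-old mouse 55.0. In the WT mouse, 8 of its 50 neuroblast-like cells held 99.3% of their Npy UMIs, and in the 6-week-old mouse 21 of 376 held 99.1%. The highest value was then that of #2, 923 CPM, the mouse with the lowest share of its UMIs in cells.

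**Figure D5:**
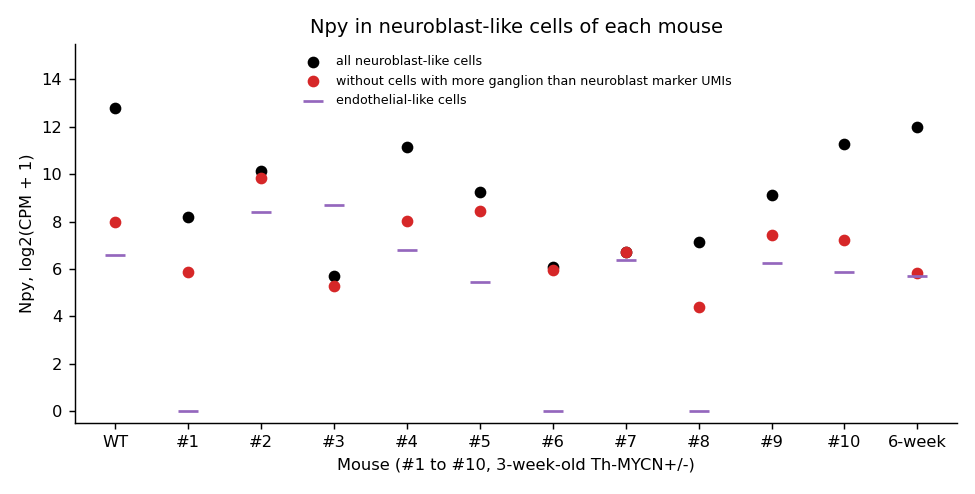
Npy in neuroblast-like cells of each mouse as log2(CPM + 1), for all these cells (black) and without the cells with more ganglion than neuroblast marker UMIs (red), with the level in endothelial-like cells of the same mouse as a line. The WT, #4, #10 and 6-week-old mice dropped most, and all mice lay at 923 CPM or less once those cells were left out.

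Against Schwann-like cells of the same mice, 68.3% of the genes tested were called, 38.4% higher and 29.9% lower. Pnoc was higher in neuroblast-like cells by 5.56 ± 0.32 (log2, SE; edgeR adjusted p = 4.1931e-15) and Cartpt by 5.43 ± 0.40. Both entered the test through their neuroblast-like sums. In Schwann-like cells, Pnoc had 0 to 7 UMIs per mouse and Cartpt 0 to 22. The 22 Cartpt UMIs were those of #4, 21 of them in 1 cell. Both results thus rest on nearly empty Schwann-like sums. Vip had 221 UMIs in neuroblast-like cells of the 10 mice, 208 of them in #4 and #9, and 1 UMI in Schwann-like cells. It entered the test through the neuroblast-like sums, at 5.29 ± 0.79 in edgeR (adjusted p = 1.7292e-06), but at 0.61 ± 2.41 in DESeq2 (adjusted p = 0.838), and had too few UMIs to be tested without #4, without #9 or without the 117 cells, so that no difference is read from it. Gal was higher by 2.53 ± 0.36 (adjusted p = 4.6838e-07) and by 0.77 ± 0.30 without the 117 cells (adjusted p = 0.026). The smaller difference rests on low counts. Over all libraries, the remaining neuroblast-like cells had 24.0 CPM of Gal, and Schwann-like cells had 1 to 14 Gal UMIs per mouse. Barcodes taken as empty held a median of 413 CPM of Gal. Npy was higher by 1.19 ± 0.35 (adjusted p = 0.00394, 7 of 10 mice), but differed by -0.46 ± 0.22 without the 117 cells (adjusted p = 0.0596). The call for Npy thus depended on the 117 cells.

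Cells with and without a UMI of a neuropeptide gene were then compared within the neuroblast-like class, at 500 UMIs per cell and within each mouse. The split by Pnoc could be made in all 10 mice, where 0.574% of 1916 genes were called, 0.157% higher and 0.418% lower. Npy was lower in cells with a Pnoc UMI, at 124 against 440 CPM (-1.91 ± 0.28 on the log2 scale, edgeR adjusted p = 2.5695e-06, 9 of 10 mice). Without the 117 cells, this was -0.91 ± 0.34 (adjusted p = 0.389). Apoe (397 against 1026 CPM) and Sparc (41.5 against 134 CPM), both markers of Schwann cells, were also lower in 10 of 10 mice, by -1.83 ± 0.23 and -2.39 ± 0.62 (adjusted p = 1.4492e-08 and 0.0413). Cartpt differed by -0.43 ± 0.19 (adjusted p = 0.441) and H-MYCN by 0.08 ± 0.18 (adjusted p = 0.937), with an interval of -0.26 to 0.43.

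The split by Cartpt (9 mice) called 1.06% of 1228 genes, 0.651% higher and 0.407% lower. Cells with a Cartpt UMI had more Prph (874 against 347 CPM, 1.37 ± 0.21 on the log2 scale, adjusted p = 2.4394e-06), Tsc22d1 (0.81 ± 0.16) and Gap43 (0.63 ± 0.090), in 9 of 9 mice each. Prph encodes the neuronal filament protein peripherin and Gap43 a protein of growing axons. Dcakd (-1.23 ± 0.32) and the tubulin gene Tuba1b (-0.33 ± 0.090) were lower in every mouse. Pnoc differed by 0.22 ± 0.19 (adjusted p = 0.751), H-MYCN by 0.03 ± 0.25 (adjusted p = 0.985) and Npy by -0.59 ± 0.33 (adjusted p = 0.578). With cells thinned to 1000 UMIs, Npy was lower in the cells with Cartpt by -2.01 (adjusted p = 6.59e-08), and without the 117 cells at 500 UMIs it differed by 0.47 (adjusted p = 0.706).

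The split by Npy (6 mice) called 16.4% of 843 genes, 10.2% higher and 6.17% lower, which is 138 genes. Without the 117 cells 2 genes were called. Cells with a Npy UMI had more of the ganglion genes Slc6a2 (the noradrenaline transporter, 4.21 ± 0.83 on the log2 scale), Sncg (3.26 ± 0.22), Tppp3 (2.94 ± 0.36) and Prph (2.90 ± 0.20). They had less H-MYCN (110 against 456 CPM, -1.91 ± 0.52, adjusted p = 0.0106) and less of the replication genes Pcna (-1.69 ± 0.44) and Rrm2 (-1.35 ± 0.34), of Dek (-1.66 ± 0.42) and of Hnrnpdl (-1.43 ± 0.38), each in 6 of 6 mice. Without the 117 cells, H-MYCN differed by -1.51 ± 0.50 (adjusted p = 0.178). Pnoc was lower by -0.96 ± 0.31 (adjusted p = 0.0324), but by -0.60 ± 0.32 without them (adjusted p = 0.422), and Cartpt differed by -0.15 ± 0.27 (adjusted p = 0.764). Too few cells held or lacked a UMI for the same split by Npy or Sst in ganglion-like cells and by Gal or Adcyap1 in neuroblast-like cells.

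Vip, the precursor of a vasodilator peptide of parasympathetic and cholinergic sympathetic neurons, was carried by single cells. One ganglion-like cell of #7 held 433 of its 721 UMIs, among 9131 UMIs in all, together with 30 UMIs of Cartpt, 31 of Npy and 0 of Gal. The same cell had 1 UMI of Chat, 3 of Slc18a3 and 5 of Slc5a7, which serve the synthesis, vesicle loading and uptake for acetylcholine. A second ganglion-like cell of #7 held 32 Vip UMIs among 729. Of the 9 cells with at least 5 Vip UMIs, 6 were neuroblast-like cells of cluster 4, 5 of them from #4 with 97, 21, 17, 8 and 5 UMIs and 1 from #9 with 54. These 6 cells had 2 to 30 Cartpt UMIs and 1 to 3 H-MYCN UMIs each. The level by mouse was 0 in 7 of 10 mice in ganglion-like cells and reached 2148 CPM in #7, and the WT mouse had 0 Vip UMIs in its neuroblast-like cells.

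Sst, an inhibitory peptide also found in neurons of prevertebral ganglia, was low and spread over 78 ganglion-like and 15 neuroblast-like cells. Ganglion-like cells had 6.94 CPM ± 7.96 (SD, n = 10), with UMIs in 6 of 10 mice and a highest value of 23.5 in #2. Neuroblast-like cells had UMIs in 4 of 10 mice and a highest value of 19.7 in #4, where 1 cell of cluster 4 held 19 of them together with 8 Vip UMIs.

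Penk, which encodes the enkephalins, was found in no neural cell. Its 40 UMIs lay in 25 of 141 fibroblast-like cells, at 321 CPM over all of them together, and 7 of the 9 3-week-old Th-MYCN+/- mice with at least 5 such cells had a UMI. The WT mouse had 291 CPM there (107 to 633) and the 6-week-old mouse 324 (140 to 638). In ganglion-like and neuroblast-like cells, 0 UMIs were found among 8784708 and 17691913. Nts, the precursor of neurotensin, had 24 UMIs in 12 of 509 endothelial-like cells, 15 of them in #2 (416 CPM) and 6 in the WT mouse (94.0), with 0 in 7 of 10 mice. Tac1, the precursor of substance P, had 2 UMIs, both in neuroblast-like cells.

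Most genes that process, store and release peptides were lower in neuroblast-like than in ganglion-like cells. Of the 20 genes listed, 19 were tested, 16 were lower, 1 was higher and 2 did not pass, where 30.3% of all genes were lower and 33.2% higher, with a median of -1.73 on the log2 scale against 0.06 over all genes. Syt4, a granule protein (-3.24 ± 0.24, adjusted p = 1.2406e-11), Rab3d, a GTPase of secretory granules (-3.19 ± 0.27, adjusted p = 1.0536e-10), Scg2, a secretogranin (-3.03 ± 0.31, adjusted p = 5.259e-09), and Slc18a2, the vesicular monoamine transporter (-2.25 ± 0.17, adjusted p = 1.5009e-11), were lower in 10 of 10 mice. The gene that was higher was Chga, which encodes chromogranin A (0.61 ± 0.19, adjusted p = 0.00778), and Cpe and Scg3 did not pass. Chga, Cpe and Scg3 were singled out after their values were seen.

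Both neural classes had more of these genes than Schwann-like cells. In ganglion-like cells, 15 of 18 tested were higher and 2 lower, where 35.9% and 32.2% of all genes were, with Syt4 at 5.88 ± 0.29, Scg2 at 5.80 ± 0.41, Cyb561 at 5.50 ± 0.26 and Dbh, which makes noradrenaline, at 5.04 ± 0.27. In neuroblast-like cells, 11 of 15 were higher and 3 lower, where 38.4% and 29.9% of all genes were, led by Chgb (3.76 ± 0.32), Scg5 (3.48 ± 0.21), Chga (3.46 ± 0.29) and Cyb561 (3.37 ± 0.25). Dbh and Cyb561 are also on the list of ganglion markers used for naming. Scg2, Chgb and Syt4 had 12, 20 and 26 UMIs in all Schwann-like cells, so that their sizes rest on low counts there.

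Few receptor genes were abundant enough to be tested, 6 of the 24 of these peptides. Between neuroblast-like and ganglion-like cells, 5 were lower and 1 was higher, where 63.5% of all genes were called and 30.3% were lower. Lower were Sstr2, a somatostatin receptor (-3.69 ± 0.43, adjusted p = 3.622e-08), and Oprl1, the receptor of the Pnoc product nociceptin (-0.77 ± 0.26, adjusted p = 0.0105), in 10 of 10 mice each. Npy4r (-3.49 ± 0.50), Npy1r (-1.78 ± 0.45), both receptors of the neuropeptide Y family, and Adcyap1r1, the PACAP receptor (-1.19 ± 0.20), were lower in 9, 8 and 9 of 10 mice. The receptor that was higher was Sstr1 (5.50 ± 0.67, adjusted p = 1.0526895e-07, 8 of 10 mice), at a mean of 21.7 against 1.20 CPM. These 4 were named after their values were seen. Among 38 other neuropeptide genes, 5 were tested, and 1 was higher and 1 lower, which is no more than the share of all genes. Ghrh, the precursor of growth hormone-releasing hormone, was higher in neuroblast-like cells by 5.52 ± 0.51 (adjusted p = 6.9903e-10), and Pthlh, the parathyroid hormone-related peptide, was lower by -2.24 ± 0.33 (adjusted p = 2.0909e-06), each in 10 of 10 mice. Sstr1 and Ghrh entered this test through the neuroblast-like cells, with 214 and 279 UMIs there against 1 and 2 in ganglion-like cells. The sizes and p-values of both thus rest on nearly empty ganglion-like sums. Against Schwann-like cells, Adcyap1r1 was higher in ganglion-like cells (4.56 ± 0.45) and in neuroblast-like cells (3.25 ± 0.48). It had 8 UMIs in all Schwann-like cells, against 570 in ganglion-like and 611 in neuroblast-like cells. Both sizes thus rest on nearly empty Schwann-like sums.

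The genes whose levels ran most like those of each neuropeptide gene were found over 70 sums of a mouse and a class, as Pearson's r of log2(CPM + 10) across 6561 genes. The sums share libraries and classes, so that r is a description. Npy ran most like Gal (r = 0.901), Slc6a2 (0.884) and Stmn3 (0.880), and Gal most like Slc6a2 (0.975), Chrna3 (0.956), a subunit of the ganglionic nicotinic receptor, and Eno2 (0.951). Cartpt ran most like Agtr2 (0.844), Rrm2 (0.836) and Gins1 (0.824), and Pnoc most like Egln3 (0.956), Igfbpl1 (0.938) and Nfe2l3 (0.930). For Vip, which rested on few cells, the highest r was 0.526 with Stau2, before Tanc2 (0.4998) and Lix1 (0.495).

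Markers of other cells were counted beside these results. Pnmt and Slc18a1, genes of chromaffin cells, which also carry peptides, together had 30.3 to 95.6 CPM in neuroblast-like cells over the 10 mice and 0 to 32.3 CPM in ganglion-like ones, and the highest among the neuroblast-like clusters was cluster 4 with 94.2. The 3 cholinergic genes had 0 to 6.53 and 0 to 50.7 CPM, with the highest ganglion-like value in the mouse of the cell with 433 Vip UMIs. The hemoglobin genes reached 41583 CPM in the endothelial-like cells of 1 mouse, the class used as background for Npy. Their part in the levels of the neuropeptide genes was not tested.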

How the data were processed

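Droplet-based scRNA-seq of SMG was analysed from the deposited UMI counts. The authors made these counts with Cell Ranger 3.0.2, mapping to mm10 plus human MYCN, and kept every barcode and applied no normalization. For the gene annotation, the release was not given in the sources used here. Positions were matched by gene identifier to the GRCm38 annotation.

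Cells were called with an implementation of EmptyDrops (FDR 0.01, empty droplets up to 100 UMIs, 10000 draws). Cells with under 200 genes, over 60% ribosomal or over 10% mitochondrial UMIs were left out. SCTransform on 2000 genes and Louvain clustering (30 components, resolution 0.5; Seurat 5.3.0, sctransform 0.4.2, R 4.3.3) gave 15 clusters. A cluster was named where at least 50% and at least 3 of a class's markers were 1.5 times as high as in other cells and detected in 10% of its cells, a rule set after the clusters had been seen. Doublets were scored with Scrublet (scanpy 1.11.5) and not removed.

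Levels (CPM) are UMIs per 1000000 of a class in a mouse, with at least 5 cells. Sums per mouse and class were tested with edgeR 4.0.16 (filterByExpr, TMM, quasi-likelihood, mouse as block, Benjamini-Hochberg, threshold 0.05), and DESeq2 1.42.0 was an alternative. Splits by a UMI used cells thinned to 500 UMIs, at least 10 cells per sum and at least 4 mice. Both sums of a mouse come from the same animal, and their deviations correlated by 0.0137 to 0.289 between neuroblast-like and ganglion-like cells. The scripts were tested on simulated data. Alternatives were other cell filters, cell calling, doublet scores, resolutions, clustering, low-count filters, thinning depths, blocks, subtraction of free RNA, and each mouse left out. Leaving out the shallow neuroblast-like cluster 0, or the 117 cells, was added after the data were seen.

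The 10 genes and all gene lists were chosen with earlier results of these data known. Named were the 10 genes and H-MYCN. From each list, up to 4 genes per comparison and direction were named, those with the largest change among called genes with 1 sign in every mouse. For each split, up to 5 per direction were named by the same rule, of which 1 is not reported here, and for each gene with at least 200 UMIs the 3 with the highest r among genes of at least 20 CPM. Python 3.11.15, numpy 2.4.6, scipy 1.17.1, pandas 2.3.3 and matplotlib 3.10.9 were used.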

Additional observations from a re-analysis of the deposited data

Results flagged for a closer look

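Over the 10 3-week-old Th-MYCN+/- mice, 23 sets of values were tested for a mouse far from the others (Dixon's test at the 95% level), and 10 had one. A chance rate of about 1 in 20 holds for independent sets of normally distributed values. Many of these sets are low counts from few cells, and some flags share a cell, so that the count is a description.

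In ganglion-like cells, #7 stood apart for Vip with 2148 CPM and for Cartpt with 166 CPM, and both rested mainly on 1 cell with 433 Vip and 30 Cartpt UMIs. Pnoc was highest in #1 with 47.3 CPM, from 26 ganglion-like cells. In neuroblast-like cells, #4 stood apart for Vip with 80.5 CPM and for Sst with 19.7 CPM, in both cases from few cells of cluster 4. In #2, 30.4% of neuroblast-like cells had a Npy UMI at 500 UMIs, and RNA from outside of cells, estimated from Npy in endothelial-like cells, was 4.53% of its UMIs, where the 12 libraries ranged from 0 to 7.90%.

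In Schwann-like cells, which should lack these genes, #2 stood apart for Npy with 736 CPM and for Gal with 184 CPM, from 10 cells in all. Mouse #4 stood apart for Cartpt with 39.1 CPM, where 1 cell held 21 of the UMIs, and #6 for H-MYCN with 144 CPM.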

How the results depend on the processing

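Over all alternatives, 770 values kept their direction and their side of the threshold or stayed within the spread, 46 moved further, 28 turned direction, 18 no longer passed and 4 newly passed. Beyond fewer samples or genes tested, the cause was not tested. Each block is a mouse, from which both sums came. Without the block, 2182 genes passed between ganglion-like and Schwann-like cells, 3814 between neuroblast-like and Schwann-like cells, and 50, 3 and 1 in the splits by Npy, Cartpt and Pnoc. In the Npy split Pnoc was then at -0.86 and Cartpt at 0.13 on the log2 scale.

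Without a filter on low counts 6906 genes passed between ganglion-like and Schwann-like cells. Npy of neuroblast-like against Schwann-like cells was -0.23 with log-normalized clustering, 0.71 without the shallow cluster and -0.46 without the 117 cells.

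In the split of ganglion-like cells by Gal, 0 genes passed with DESeq2 and, in edgeR, with at least 500 genes per cell (31 and 41 at an unadjusted p under 0.05, Gal itself included), 5 without a filter and 2 at 1000 UMIs. Leaving out a mouse gave 0 to 2. Its Npy difference was -0.18 without a filter, -0.030 with at least 500 genes, -0.022 without high Scrublet scores, -0.088 at 1000 UMIs, and -0.073 to 0.16 with a mouse left out.

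In the Npy split, 580 genes passed without a filter, 8 with log-normalized clustering, 2 without the 117 cells, 299 at 1000 UMIs and 51 to 256 with a mouse left out. H-MYCN was -1.86 with DESeq2, -1.24 with log-normalized clustering, -1.51 without the 117 cells and -0.52 at 1000 UMIs, where it no longer passed. Pnoc no longer passed with DESeq2 (-0.94), at least 500 genes (-0.84), without high Scrublet scores (-0.80), with log-normalized clustering (-0.51), the 10 genes kept in clustering (-0.89), without the shallow cluster (-0.995) or the 117 cells (-0.60), or without #1, #4 or #10 (-1.24 to -0.89 over all mice left out). Cartpt was 0.0065 without high Scrublet scores, 0.26 with log-normalized clustering, 0.21 without the 117 cells and -0.82 at 1000 UMIs, where it passed.

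In the Cartpt split, 8 genes passed with DESeq2, 323 without a filter, 7 without high Scrublet scores and 6 to 18 with a mouse left out. Npy passed without a filter (-1.05) and at 1000 UMIs (-2.01), and was 0.54 with log-normalized clustering and 0.47 without the 117 cells. Pnoc was -0.24 without a filter and -0.16 at 1000 UMIs. H-MYCN was -0.44 without a filter, -0.032 with at least 500 genes, -0.008 with log-normalized clustering, -0.053 without the shallow cluster, -0.015 without the 117 cells, -0.61 at 1000 UMIs, and -0.12 to 0.17 with a mouse left out.

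In the Pnoc split, 6 genes passed with DESeq2, 239 without a filter, 5 with log-normalized clustering, 4 without the 117 cells, 40 at 1000 UMIs and 6 to 17 with a mouse left out. Npy no longer passed with log-normalized clustering (-0.75) and without the 117 cells (-0.91). Cartpt passed without a filter (-0.77). H-MYCN was -0.24 without a filter, -0.026 at 1000 UMIs, and -0.023 to 0.18 with a mouse left out.

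In ganglion-like cells, Npy of the WT mouse was 11233 CPM without high Scrublet scores and 10217 with the 10 genes kept in clustering, and that of the 6-week-old mouse 12147 without high Scrublet scores and 12617 with log-normalized clustering. Gal of the WT mouse was 2118, 2033 and 2688 CPM without high Scrublet scores, with log-normalized clustering and with the 10 genes kept, and that of the 6-week-old mouse 1342 at resolution 0.2 and 1046 with log-normalized clustering. At 1000 UMIs, 15.0% of neuroblast-like cells had a Cartpt UMI and 29.9% a Pnoc UMI. The WT and the 6-week-old mouse were not tested against the others, and genes with few UMIs are limited by depth.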

Other observations

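A limit of 5000 CPM of Npy, set after the values were seen, separates Npy-rich cells of the neuroblast-like class by Npy alone. Npy is itself a ganglion marker of the study, and the class was named from marker genes. The 10 3-week-old Th-MYCN+/- mice had 3077 neuroblast-like cells of 1000 UMIs or more, and 41 reached the limit. The H-MYCN level of these 41 cells was 9.40 CPM against 342 CPM in the others. Pnoc stood at 11.3 CPM in the 41 cells against 444 CPM, and their median depth was 28146 UMIs against 4097. They came from 8 of the 10 mice, and 15 of them from #10. Among ganglion-like cells of that depth, 1262 of 1420 reached the limit. In the 6-week-old mouse, 15 of 286 neuroblast-like cells reached it and had 0 UMIs of H-MYCN and of Pnoc.

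The 28 cells of the unnamed cluster had 62 Npy UMIs (2730 CPM) in 23 cells and 5 Gal UMIs, with 0 of Pnoc and of H-MYCN, and 12 of them came from the 6-week-old mouse.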
